A study of Mus musculus with 6 samples.

Results

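The walls of large arteries recoil because their media is built from elastic fibres, and 32 genes that encode the proteins of these fibres and of the microfibrils around them were followed in mouse aorta, out of 18191 genes with values. The genes were chosen by name, as tropoelastin, the fibrillins, the EMILINs, the microfibril-associated proteins, the fibulins, the lysyl oxidases, the latent TGF-β binding proteins (LTBPs) and the ADAMTS and ADAMTS-like proteins that act on fibrillin. This list was set with earlier results of these data known. RNA of whole aortas was sequenced in 3 WT and 3 Npr1+/- libraries, all from male mice. Npr1+/- mice carry 1 disrupted copy of Npr1, made with CRISPR-Cas9, and Npr1 encodes the receptor of atrial and B-type natriuretic peptide. The ages of the mice, their strain, and whether a library came from 1 animal or from a pool are not given in the sources used here. The p-values therefore measure the spread between these libraries, whatever its source.

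In an elastic fibre, secreted tropoelastin is gathered by fibulins on a scaffold of fibrillin microfibrils and is joined into an insoluble polymer by lysyl oxidases, which need copper. In the aorta, smooth muscle cells and adventitial fibroblasts secrete most of these proteins, and most of the elastin is laid down around birth. Human defects in elastin, fibrillin-1, fibulin-4 and lysyl oxidase are known causes of arterial narrowing, aneurysm or dissection.

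Most of these genes had less RNA in Npr1+/- aortas than in WT aortas, and none of the differences passed the threshold of the main test. Of the 32 genes, 30 had enough counts to be tested, and 26 of the 30 had a negative log2 fold change in Npr1+/- aortas, against 48.4% of all tested genes. The 30 genes had a median log2 fold change of -0.33, while that of the 13938 genes tested was 0.01. Requiring an adjusted p (Benjamini-Hochberg) under 0.05 and a log2 fold change of 0.5 or more in size, the quasi-likelihood test of edgeR called 0 of the 30, with 0.0% of all tested genes called. With the replicate number as a block it again called 0 of the 30, with 0.0% of all tested genes called. DESeq2 called 0 of the 30 without the block and 7 with it, all lower, where it called 0.616% of genes lower. At an unadjusted p under 0.05 edgeR found 2 of the 30 lower, Fbn1 and Adamts6, against 1.08% of all tested genes, and 0 of the 30 higher, against 1.88%. With the replicate number as a block edgeR found 11 lower, against 5.09% of all tested genes, and 1 higher, against 7.36%. The members were thus more often on the low side than the tested genes as a whole. Since the list was set with earlier results of these data known, the shares describe it and do not test it. The 95% intervals of the log2 fold change held 0 for all but 2 of the 30 without the block. For 15 of the 30 the interval without the block reached a log2 fold change of -1 or below.

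The libraries themselves differed in ways that touch all values below. The estimated counts summed to between 13510970 and 16664343 per library, so that counting error is small for all members but the rarest. The libraries numbered 1 stood apart from the other 4 in both genotypes on the first principal component, which held 59.3% of the variance. The summed level of 6 smooth muscle markers, none of them at 0, was 20110 CPM (counts scaled to a common library total after normalization) in WT 1 and 34010 and 36750 CPM in WT 2 and 3, and it was 12370 CPM in Npr1+/- 1 and 32390 and 33420 CPM in Npr1+/- 2 and 3. The summed level of 5 erythroid genes was 7549 CPM in WT 1 and 6285 CPM in Npr1+/- 1, and between 631 and 1313 CPM in the other 4 libraries. The libraries numbered 1 were also the highest of their genotype in the summed markers of white and of brown fat. The sum of 9 markers of sympathetic neurons was 417 CPM in Npr1+/- 1, and 11.7 and 8.96 CPM in Npr1+/- 2 and 3. In WT libraries this sum lay between 4.998 and 6.548 CPM, so the genotypes did not overlap. Schwann cell markers reached 224.5 CPM in Npr1+/- 1 against at most 68.1 CPM elsewhere, and mesothelial markers 8.20 CPM against at most 1.46 CPM. Macrophage markers lay between 71.5 and 171 CPM in WT and between 82.9 and 124 CPM in Npr1+/- libraries, cardiac muscle markers between 83.5 and 89.8 CPM and between 53.2 and 79.7 CPM, and skeletal muscle markers between 4.30 and 7.10 CPM and between 6.61 and 7.77 CPM. White fat markers ranged from 315 to 1593 CPM in WT and from 594.5 to 2761 CPM in Npr1+/- libraries, and brown fat markers from 312 to 2462 CPM and from 703 to 2605 CPM. The main results are therefore given within replicate numbers as well. The labels do not say that a number marks a shared litter, batch or day. The pairing was taken from correlations in these same data, which did not tell the numbers 2 and 3 apart. The part of tissue composition in the differences was not tested. In bulk RNA, fewer cells of a type and less RNA per cell cannot be told apart. As the check of the labels, Npr1 stood at 112, 153 and 152 FPKM (fragments scaled by transcript length and library total) in the WT libraries 1, 2 and 3, compared with 70.4, 110 and 133 FPKM in the Npr1+/- libraries 1, 2 and 3. The groups overlapped, and within replicate numbers Npr1+/- was at 65.2%, 73.9% and 83.2% of WT, by CPM.

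On the FPKM scale, which allows levels of different genes to be compared, the members spanned a wide range. Of the 32, 8 had a mean of at least 100 FPKM over the 6 libraries, 15 lay between 10 and 100, and 9 were under 10. In WT aortas Eln was first with 886 ± 224 FPKM (SD, n = 3), followed by Mfap4 with 480 ± 105 FPKM, Ltbp4 with 323 ± 75.4 FPKM, Mfap5 with 220 ± 33.7 FPKM and Fbln5 with 220 ± 48.9 FPKM. Mfap5 and Fbln5 could not be ordered beyond their spread. Next came Loxl1, Ltbp1 and Ltbp3 with means between 129 and 140 FPKM, which did not differ beyond their spread either. All members together took 0.800%, 1.16% and 1.10% of the counts in the WT libraries 1, 2 and 3, compared with 0.486%, 0.894% and 0.898% in the Npr1+/- libraries. Fbn2, a fibrillin known mainly from development, had between 0 and 5 counts in each library. Emilin3 had between 1 and 7 counts, and neither gene was tested.

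**Figure D1:**
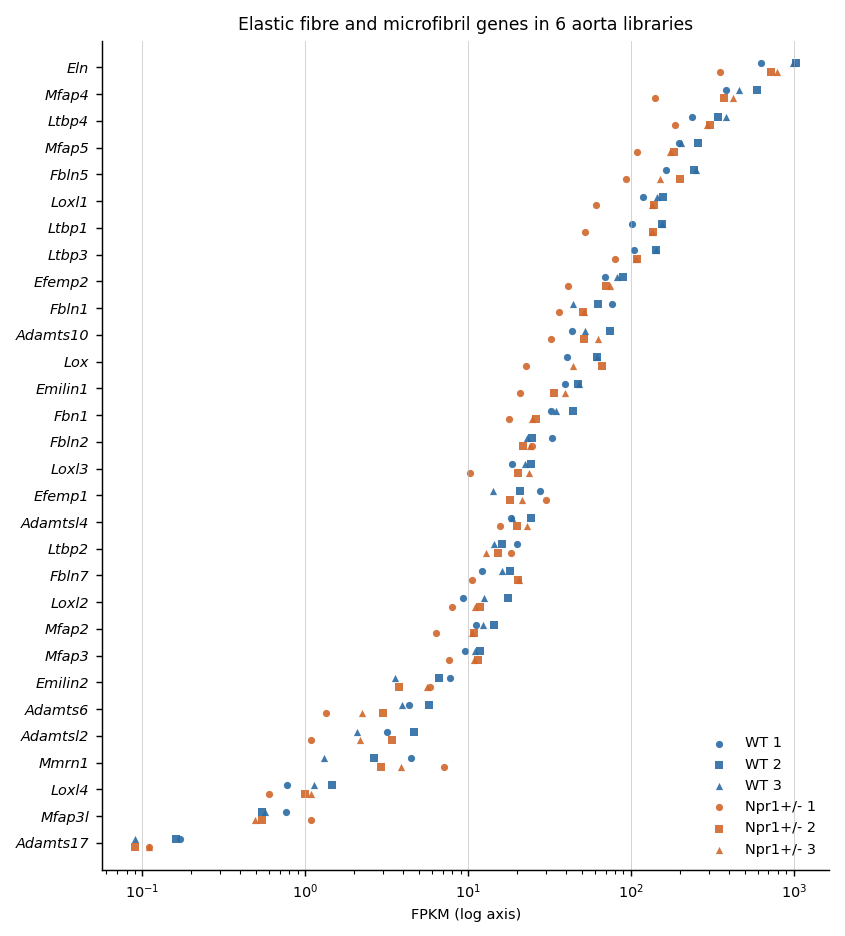
FPKM of the 30 tested genes (log axis) in each library, with WT in blue, Npr1+/- in orange and the replicate number as the symbol, ordered by the WT mean. The circles of Npr1+/- 1 are the lowest of the 6 libraries for most of the genes.

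Tropoelastin is the monomer of elastin. Eln (NCBI gene 13717, chromosome 5 of GRCm38 from 134702595) stood at 628, 1038 and 991 FPKM in the WT libraries 1, 2 and 3, compared with 351, 728 and 790 FPKM in the Npr1+/- libraries 1, 2 and 3. The groups overlapped, since WT 1 was below Npr1+/- 2 and 3, while each Npr1+/- library was below the WT library of its number. Within replicate numbers the Npr1+/- library was at 57.8%, 71.7% and 74.9% of WT (CPM). The log2 fold change was -0.52 (standard error 0.41, 95% interval from -1.49 to 0.45, unadjusted p = 0.241, adjusted p = 0.999 by the quasi-likelihood test of edgeR). With the replicate number as a block it was -0.56 (standard error 0.21, 95% interval from -1.05 to -0.075, unadjusted p = 0.0291, adjusted p = 0.337). Without the block it was -0.26 when Npr1+/- replicate 1 was left out and -0.45 without both libraries numbered 1. Eln alone took 0.230%, 0.379% and 0.361% of the counts in the WT libraries 1, 2 and 3, compared with 0.127%, 0.263% and 0.286% in the Npr1+/- libraries. The summed smooth muscle markers were at 61.5%, 95.2% and 90.9% of WT within the numbers 1, 2 and 3. Of these 6 markers, 5 had a negative log2 fold change, with a median of -0.18 and a range from -0.38 for Myh11 to 0.45 for Des. The part of smooth muscle content in the value of Eln was not tested.

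Fibrillin-1 forms the core of the microfibrils. Fbn1 (NCBI gene 14118, chromosome 2 from 125300594) stood at 32.5, 44.2 and 34.9 FPKM in the WT libraries 1, 2 and 3, compared with 17.8, 26.0 and 24.7 FPKM in the Npr1+/- libraries 1, 2 and 3. All 3 Npr1+/- libraries were below all 3 WT libraries, and within replicate numbers they were at 57.1%, 60.7% and 67.2% of WT (CPM). The log2 fold change was -0.70 (standard error 0.21, 95% interval from -1.20 to -0.19, unadjusted p = 0.0140, adjusted p = 0.999 by the quasi-likelihood test of edgeR). With the block it was -0.70 (standard error 0.135, unadjusted p = 0.00105, adjusted p = 0.133). Leaving out single libraries gave values from -0.81 to -0.57, and it was -0.65 without both libraries numbered 1.

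Fbn1 was 1 of 5 members whose groups did not overlap, all lower in Npr1+/- aortas, against 3.58% of all tested genes. The others were Emilin1, Mfap2, Mfap5 and Adamts6. No member had its 3 Npr1+/- values above its 3 WT values, a pattern of 3.9% of all tested genes. By replicate number, 18 of the 30 were lower in Npr1+/- in each of the 3 numbers, against 16.9% of all tested genes, and 1 of the 30, Mmrn1, was higher in each, against 17.5%. These counts use normalized CPM. By FPKM, Fbln2 and Adamtsl2 leave the 18 and Mfap3 joins them.

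For the genes without overlap, the bases before the start are shown where the reference held them. The RefSeq promoter table of GRCm38.p6 held entries for 21 of the 32 members. Those without were Eln, Fbn2, Emilin3, Mfap4, Mfap5, Lox, Loxl1, Loxl2, Loxl3, Adamts6 and Adamts10. Of the 5 genes, bases ahead of the whole annotated gene could be shown for 2, and the entry of Emilin1 lay inside the span of its gene. The bases run 5′ to 3′ on the strand of the gene, with matches to the motifs searched in capitals. They are chr2:125506486-125506688 (minus strand) for Fbn1 and chr4:141010174-141010423 (plus strand) for Mfap2.
Fbn1: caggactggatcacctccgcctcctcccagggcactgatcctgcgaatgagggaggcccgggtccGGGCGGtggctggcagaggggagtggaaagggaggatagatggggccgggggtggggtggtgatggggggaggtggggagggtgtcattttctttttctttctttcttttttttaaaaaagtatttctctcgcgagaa
Mfap2: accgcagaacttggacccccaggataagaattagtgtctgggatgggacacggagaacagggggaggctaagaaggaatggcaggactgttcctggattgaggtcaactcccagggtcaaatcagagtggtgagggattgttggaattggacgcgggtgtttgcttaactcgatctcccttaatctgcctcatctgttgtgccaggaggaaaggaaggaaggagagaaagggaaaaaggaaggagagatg
The motifs were the SP1 GC box GGGCGG, the TATA box TATAAA, the AP-1 site TGACTCA, the E box CACGTG and the CArG box of serum response factor, each on both strands. The capitals in Fbn1 are 1 SP1 GC box, and the bases shown for Mfap2 held no match. In windows of 250 bases before each start in the table, 19 of 32 windows of members held an SP1 GC box, against 32.7% of all 32851 windows. The TATA box was in 2 of the 32 windows, against 12.4% of all windows, and the E box in 3, against 6.02%. The AP-1 site and the CArG box were in 0 of the 32, against 4.46% and 1.47% of all windows. The member windows had a median GC content of 60.4%, against 52.4% over all windows, and windows of a gene with several starts can overlap. The matches describe letters in these windows, and binding was not measured.

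EMILINs are glycoproteins at the border of elastin and microfibrils, and multimerin-1 is a relative of theirs known from platelets and endothelium. Emilin1 (NCBI gene 100952, chromosome 5 from 30913387) stood at 39.4, 47.6 and 48.3 FPKM in the WT libraries 1, 2 and 3, compared with 21.0, 33.7 and 39.4 FPKM in the Npr1+/- libraries 1, 2 and 3. The gap between the groups was narrow, with 39.37 FPKM in Npr1+/- 3 against 39.39 FPKM in WT 1. Its log2 fold change came to -0.52 (0.24 standard error, unadjusted p = 0.0638, adjusted p = 0.999 by the quasi-likelihood test of edgeR), and -0.56 with the block (unadjusted p = 0.0038, adjusted p = 0.175). It was -0.33 without Npr1+/- replicate 1. Emilin2 ranged from 3.58 to 7.74 FPKM with overlap, and its log2 fold change was -0.22, and 0.0039 without WT replicate 1.

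Mmrn1 was the member with the largest positive value. It stood at 4.46, 2.64 and 1.31 FPKM in the WT libraries 1, 2 and 3, compared with 7.09, 2.93 and 3.89 FPKM in the Npr1+/- libraries 1, 2 and 3, with overlap, and each Npr1+/- library was above the WT library of its number. Its log2 fold change came to 0.76 (0.50 standard error, unadjusted p = 0.174, adjusted p = 0.999 by the quasi-likelihood test of edgeR), and 0.79 with the block (unadjusted p = 0.0108, adjusted p = 0.247). Without Npr1+/- replicate 1 the value was 0.26, without WT replicate 3 it was 0.41, and without WT replicate 1 it was 1.25. The summed level of 6 endothelial markers was also higher in Npr1+/- libraries. It lay between 443 and 776 CPM in WT and between 836 and 1298 CPM in Npr1+/- libraries, without overlap, and all 6 markers had a positive log2 fold change, with a median of 0.65. By library the endothelial sum was 677, 443 and 776 CPM in WT 1, 2 and 3. It was 1298, 883 and 836 CPM in Npr1+/- 1, 2 and 3. Within the numbers 1, 2 and 3 the endothelial sum was at 191.7%, 199.5% and 107.6% of WT and Mmrn1 at 166%, 115% and 281% (CPM). The part of endothelial content in the value of Mmrn1 was not tested.

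**Figure D2:**
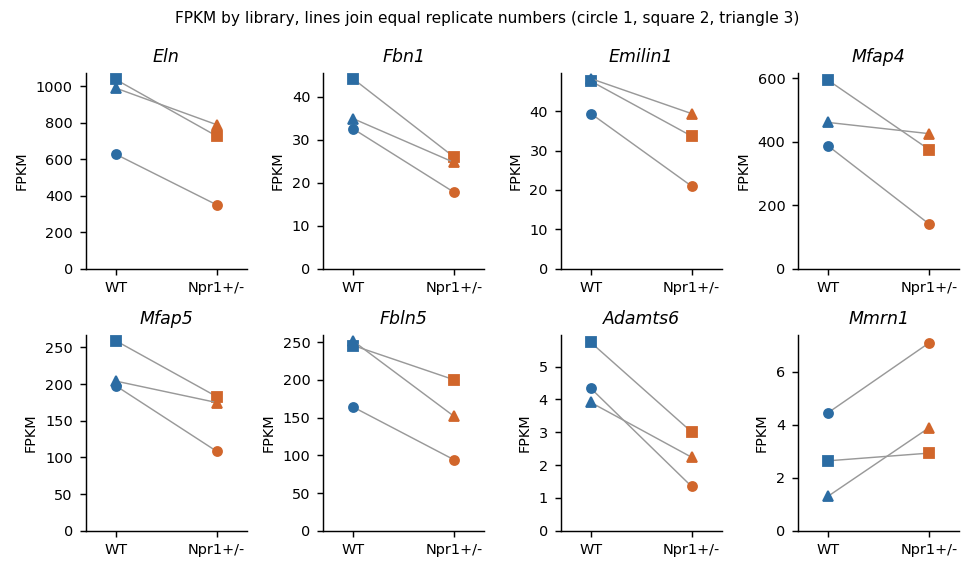
FPKM of 8 members in each library, with WT in blue on the left, Npr1+/- in orange on the right and lines between libraries of the same replicate number, on axes that start at 0. Shown are the 7 members that DESeq2 called lower in these data with the replicate number as a block, and Mmrn1. All lines fall from WT to Npr1+/- but those of Mmrn1, while over the 30 tested members 18 were lower in each number (CPM). Fbn1, Emilin1, Mfap5 and Adamts6 show no overlap between the genotypes.

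Of the microfibril-associated proteins, MFAP2 and MFAP5 (also called MAGP-1 and MAGP-2) are small proteins on fibrillin microfibrils, and MFAP4 binds tropoelastin and fibrillin-1. Mfap2 (NCBI gene 17150) stood at 11.2, 14.4 and 12.3 FPKM in the WT libraries 1, 2 and 3, compared with 6.32, 10.9 and 10.6 FPKM in the Npr1+/- libraries 1, 2 and 3, with all Npr1+/- libraries below all WT libraries. Mfap5 (NCBI gene 50530) stood at 198, 259 and 204 FPKM in the WT libraries 1, 2 and 3, compared with 108, 183 and 175 FPKM in the Npr1+/- libraries 1, 2 and 3, again without overlap. The log2 fold changes were -0.44 (standard error 0.23) for Mfap2 and -0.49 (standard error 0.23) for Mfap5, with unadjusted p of 0.0998 and 0.0724 and adjusted p of 0.999 by the quasi-likelihood test of edgeR. With the block the unadjusted p were 0.0299 and 0.0085 and the adjusted p 0.339 and 0.225. Without Npr1+/- replicate 1 the log2 fold changes were -0.27 for Mfap2 and -0.32 for Mfap5.

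Mfap4 (NCBI gene 76293, chromosome 11 from 61485431) differed widely between the replicate numbers. It stood at 386, 592 and 460 FPKM in the WT libraries 1, 2 and 3, compared with 141, 375 and 425 FPKM in the Npr1+/- libraries 1, 2 and 3, so that Npr1+/- 3 was above WT 1. Within replicate numbers it was at 38.1%, 65.3% and 87.5% of WT (CPM). Its log2 fold change was -0.61 (standard error 0.41), -0.28 without Npr1+/- replicate 1 and -0.41 without both libraries numbered 1. Mfap3 had a log2 fold change of -0.09, which was 0.04 without Npr1+/- replicate 1. Mfap3l had one of 0.17, which was -0.32 without that library.

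Fibulins bridge tropoelastin to microfibrils, and fibulin-4 (Efemp2) and fibulin-5 (Fbln5) are needed for elastic fibre assembly. Fbln5 (NCBI gene 23876, chromosome 12 from 101746565) stood at 164, 245 and 251 FPKM in the WT libraries 1, 2 and 3, compared with 94.0, 200 and 152 FPKM in the Npr1+/- libraries 1, 2 and 3. The groups overlapped through WT 1, and within replicate numbers Npr1+/- was at 59.9%, 84.5% and 58.1% of WT (CPM). Its log2 fold change came to -0.55 (0.33 standard error, unadjusted p = 0.136, adjusted p = 0.999 by the quasi-likelihood test of edgeR), and -0.59 with the block (unadjusted p = 0.0092, adjusted p = 0.235). Efemp2 stood at 69.4, 89.7 and 82.2 FPKM in the WT libraries 1, 2 and 3, compared with 40.9, 70.8 and 74.6 FPKM in the Npr1+/- libraries 1, 2 and 3, and its log2 fold change was -0.37 (standard error 0.24). It was below WT in each number, at 61.8%, 81.8% and 85.3% (CPM). Without Npr1+/- replicate 1 the log2 fold change of Fbln5 was -0.33 and that of Efemp2 -0.17, and that of Fbln5 was -0.84 without Npr1+/- replicate 2.

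Of the other 4 fibulins, Fbln2 was nearer to WT, and Fbln7 and Efemp1 differed in direction. Fbln1 was close to Efemp2 over all libraries. Fbln1 had a log2 fold change of -0.36 (standard error 0.23) and of -0.05 without both libraries numbered 1, and it stood at 50.4%, 85.4% and 112% of WT within the 3 numbers (CPM). Fbln2 had a log2 fold change of -0.18 (standard error 0.17). Fbln7, at 12.2, 18.2 and 16.2 FPKM in the WT libraries and 10.5, 20.4 and 20.7 FPKM in the Npr1+/- libraries, had one of 0.14 (standard error 0.29) and was above WT in the numbers 2 and 3. Efemp1, which encodes fibulin-3, had one of 0.17 (standard error 0.31). Both changed sign when single libraries were left out, to -0.02 for Fbln7 without WT replicate 1 and to -0.17 for Efemp1 without Npr1+/- replicate 1.

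Lysyl oxidases oxidize lysines of tropoelastin and collagen so that the chains can cross-link, and LOXL1 is the member most tied to elastin. All 5 had negative log2 fold changes, from -0.34 for Loxl2 to -0.26 for Loxl3, with standard errors between 0.26 and 0.39. Lox stood at 40.3, 62.2 and 61.7 FPKM in the WT libraries 1, 2 and 3, compared with 22.7, 66.7 and 43.8 FPKM in the Npr1+/- libraries 1, 2 and 3, with the highest value in an Npr1+/- library. Loxl1 stood at 119, 157 and 146 FPKM in the WT libraries 1, 2 and 3, compared with 60.7, 139 and 135 FPKM in the Npr1+/- libraries 1, 2 and 3. Both were lowest in Npr1+/- 1. The unadjusted p by the quasi-likelihood test of edgeR lay between 0.234 and 0.464 for the 5 genes without the block and between 0.0311 and 0.213 with it. These values depended on single libraries. Without Npr1+/- replicate 1 the log2 fold change of Lox was -0.011, that of Loxl1 -0.055, that of Loxl3 -0.0071 and that of Loxl4 -0.12. Without WT replicate 2 that of Loxl2 was -0.088 and that of Loxl4 -0.099. Without both libraries numbered 1 that of Lox was -0.19 and that of Loxl1 -0.16.

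LTBPs are relatives of fibrillin that hold latent TGF-β in the matrix, and LTBP4 also takes part in elastic fibre assembly with fibulin-5, while LTBP2 does not bind latent TGF-β. All 4 were lower in Npr1+/- in each of the 3 replicate numbers (CPM). Ltbp4 (NCBI gene 108075), the third most abundant member, stood at 239, 345 and 385 FPKM in the WT libraries 1, 2 and 3, compared with 185, 307 and 292 FPKM in the Npr1+/- libraries 1, 2 and 3, with overlap, and a log2 fold change of -0.31 (standard error 0.32), which was -0.14 without Npr1+/- replicate 1 and -0.15 without WT replicate 3. Ltbp3 stood at 104, 142 and 142 FPKM in the WT libraries 1, 2 and 3, compared with 80.5, 109 and 108 FPKM in the Npr1+/- libraries 1, 2 and 3. It was at 81.5%, 78.6% and 70.9% of WT within the numbers (CPM), with a log2 fold change of -0.39 (standard error 0.23, unadjusted p = 0.132 by the quasi-likelihood test of edgeR, and 0.0342 with the block). Ltbp1 was at 53.9%, 91.3% and 82.6% of WT within the numbers (CPM), with a log2 fold change of -0.34, which was -0.034 without Npr1+/- replicate 1. Ltbp2 was the nearest to WT, at -0.11, and at 0.02 without WT replicate 1 or without Npr1+/- replicate 3.

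ADAMTS6, ADAMTS10 and ADAMTS17 are secreted proteases, and ADAMTSL2 and ADAMTSL4 are relatives without protease activity. All 5 have been tied to fibrillin microfibrils. Adamts6 (NCBI gene 108154, chromosome 13 from 104286518) had the largest difference of all members. It stood at 4.34, 5.74 and 3.91 FPKM in the WT libraries 1, 2 and 3, compared with 1.35, 3.01 and 2.24 FPKM in the Npr1+/- libraries 1, 2 and 3, without overlap, from between 114 and 502 counts per library. Within replicate numbers it was at 34.8%, 53.9% and 50.3% of WT (CPM). The log2 fold change was -1.09 (standard error 0.28, 95% interval from -1.76 to -0.41, unadjusted p = 0.0070, adjusted p = 0.999 by the quasi-likelihood test of edgeR). With the block it was -1.12 (standard error 0.16, unadjusted p = 0.000186, adjusted p = 0.0834), the smallest adjusted p among the members. Leaving out single libraries gave values from -1.40 to -0.88, and it was -0.93 without both libraries numbered 1.

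The related genes had smaller differences. Adamts10, at 56.6 ± 15.9 FPKM in WT aortas and 48.8 ± 15.3 FPKM in those of Npr1+/- mice (SD, n = 3 for each), had a log2 fold change of -0.24, which was -0.051 without Npr1+/- replicate 1 and -0.009 without WT replicate 2. Adamtsl4 had one of -0.08, which was 0.05 without WT replicate 2, and Adamts17, with between 9 and 15 counts per library, one of -0.38 (standard error 0.40). Adamtsl2 stood at 3.17, 4.66 and 2.08 FPKM in the WT libraries 1, 2 and 3, compared with 1.09, 3.42 and 2.16 FPKM in the Npr1+/- libraries 1, 2 and 3, and its log2 fold change of -0.56 (standard error 0.455) was -0.27 without both libraries numbered 1.

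**Figure D3:**
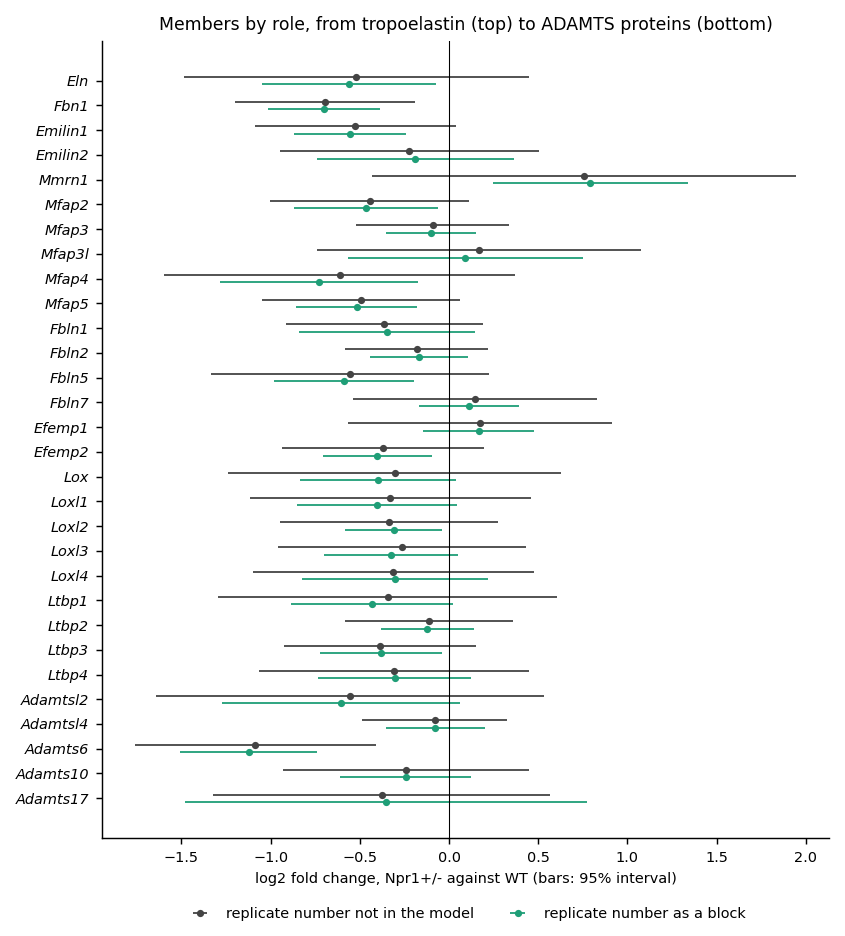
Log2 fold change of Npr1+/- against WT for the 30 tested genes, in order of their roles, with 95% intervals from edgeR without (grey) and with (green) the replicate number as a block. Without the block only the intervals of Fbn1 and Adamts6 lie below 0, and with it 11 do, while that of Mmrn1 lies above 0.

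Library by library, the median of the members moved, though not every member moved with it. Measured as the deviation from a gene's mean over the 6 libraries (log2 CPM), the median of the 30 genes was 0.02, 0.33 and 0.20 in the WT libraries 1, 2 and 3, compared with -0.61, 0.03 and -0.02 in the Npr1+/- libraries. The median of all tested genes stayed between -0.01 and 0.02. Npr1+/- 1 was the lowest library for 23 of the 30, a place it held for 29.6% of all tested genes, and WT 2 was the highest for 13, against 13.0% of all tested genes. In FPKM, 20 of the 30 were lowest in the library numbered 1 of both genotypes. Another 7 were highest there in both, which were Emilin2, Mmrn1, Mfap3l, Fbln2, Efemp1, Ltbp2 and Adamts17, the last tied with Npr1+/- 3 at 0.11 FPKM. The share of all tested genes with either pattern was not counted, so these counts do not set the members apart.

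**Figure D4:**
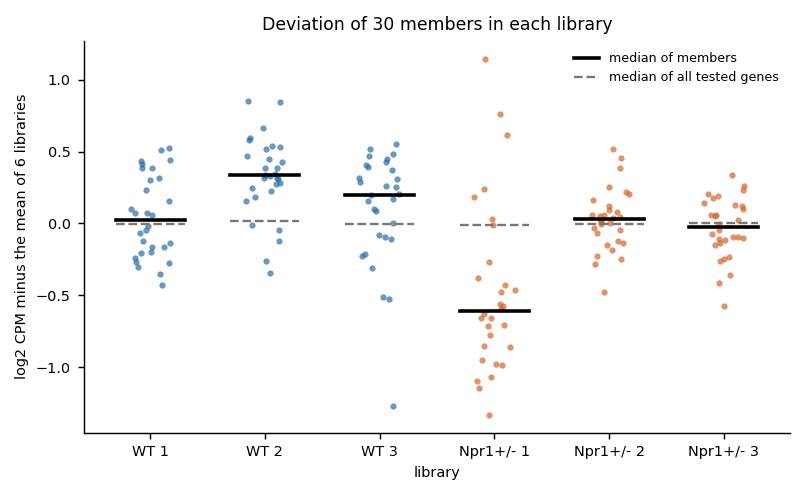
Deviation of each of the 30 tested genes from its mean over 6 libraries (log2 CPM), by library, with the median of the members (solid line) and of all tested genes (dashed line). The members of Npr1+/- 1 centre on -0.61, while the median of all tested genes stays near 0 in every library.

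Within replicate numbers, the median log2 ratio of Npr1+/- to WT over the 30 genes was -0.57, -0.28 and -0.21 for the numbers 1, 2 and 3, and 27, 25 and 21 of the 30 were lower. Over all tested genes these medians were between -0.00059 and 0.00865. Without both libraries numbered 1, 27 of the 30 had a negative log2 fold change, against 49.0% of all tested genes, and the median was -0.24. At an unadjusted p under 0.05, 10 of the 30 were then lower, against 5.12% of all tested genes (the quasi-likelihood test of edgeR on 2 libraries of each genotype, with 0 members called). The direction of the list was thus present in the other 4 libraries, and its size was smaller. Over the same numbers, the summed fibroblast markers of the 6 chosen were at 64.2%, 81.8% and 138% of WT (CPM). Of these 6 markers, 5 had a negative log2 fold change over all libraries, with a median of -0.16. The part of fibroblast content in the values of the members was not tested. The fibroblast markers ranged from 743 to 1370 CPM in WT and from 880 to 1028 CPM in Npr1+/- libraries, with overlap and none at 0.

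**Figure D5:**
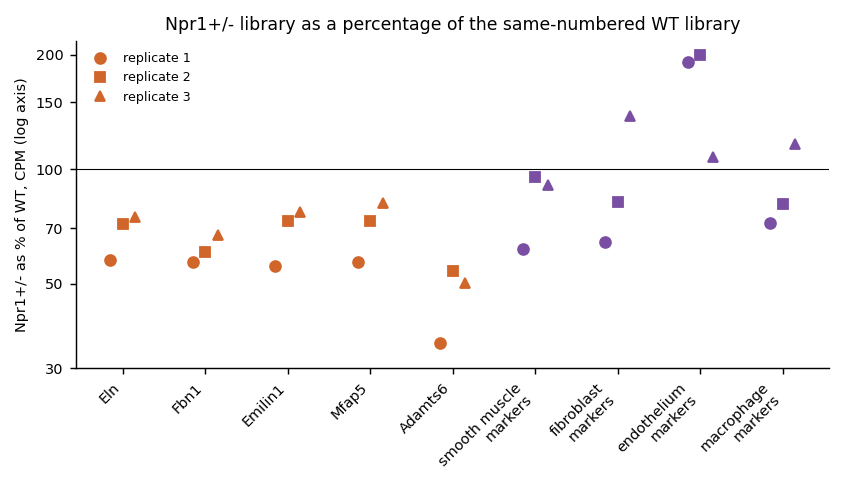
Npr1+/- library as a percentage of its WT counterpart by number (normalized CPM, log axis), for Eln and 4 of the 5 members without overlap between genotypes (orange) and for summed markers of 4 cell types (purple). The lack of overlap by itself places those 4 genes below 100% in all 3 numbers. Eln lies at 57.8%, 71.7% and 74.9%, and the smooth muscle markers lie at 61.5%, 95.2% and 90.9%.

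Expressed relative to tropoelastin, the values of all members but Fbln7 overlapped between genotypes. Per 100 FPKM of Eln, WT aortas held 4.32 ± 0.829 of Fbn1 and Npr1+/- aortas 3.92 ± 1.02 (SD, n = 3 for each). The corresponding values were 25.0 ± 1.25 and 24.5 ± 4.60 for Fbln5, 6.22 ± 0.212 and 7.06 ± 1.88 for Lox, and 25.7 ± 5.47 and 26.0 ± 4.45 for Mfap5. Ltbp4 stood at 36.7 ± 3.01 in WT and 44.0 ± 8.07 in Npr1+/- aortas. Among 29 members, 1 had proportions above WT without overlap, against 11.6% of all tested genes, and 0 were below WT, against 0.115%. This was Fbln7, at 1.78 ± 0.157 in WT and 2.81 ± 0.193 in Npr1+/- aortas, and all these proportions share the values of Eln.

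DESeq2, run on the same counts and thresholds, called 0 of the 30 members without the block, against 0.0942% of genes with an adjusted p. With the replicate number as a block, DESeq2 called 7 of the 30, all lower in Npr1+/- aortas, against 0.616% of genes called lower and 1.81% called in either direction. These were Eln (adjusted p = 0.00756), Fbn1 (0.000137), Emilin1 (0.0378), Mfap4 (0.0238), Mfap5 (0.0491), Fbln5 (0.0186) and Adamts6 (0.00136), with adjusted p from DESeq2. The calls thus rest on both the tool and the block.

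Of 55 other genes of elastic fibre biology chosen by their roles, 53 had values and 47 were tested. They too were chosen with earlier results of these data known. By the quasi-likelihood test of edgeR 0 of the 47 were called, with or without the block, while DESeq2 with the block called 5, all lower, where it called 0.616% of all genes lower. Of the 47, 32 had a negative log2 fold change, against 48.4% of all tested genes, with a median of -0.17. Without both libraries numbered 1, 30 had a negative one, against 49.0% of all tested genes, and the median was -0.067. At an unadjusted p under 0.05 without the block, 3 of the 47 were lower, against 1.08% of all tested genes, and 2 higher, against 1.88%. With the block 8 were lower, against 5.09%, and 4 higher, against 7.36%, the last a share near that of all genes. Bmp10 and Mmp7 were not analysed here.

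By role, 7 of 9 tested genes among integrins and their ligands had negative log2 fold changes, against 48.4% of all tested genes. With the block, the log2 fold changes of Itgav, Itgb3, Itgb5 and Itga8 were -0.46, -0.70, -0.54 and -0.68, with unadjusted p of 0.00655, 0.000826, 0.0140 and 0.0144 by the quasi-likelihood test of edgeR. Itga8, an integrin of smooth muscle, stood at 262, 481 and 578 FPKM in the WT libraries 1, 2 and 3, compared with 134, 384 and 360 FPKM in the Npr1+/- libraries 1, 2 and 3. Of the 47 tested genes, 2 had their 3 Npr1+/- values below their 3 WT values, 4.26% against 3.58% of all tested genes, so a share near that of all genes. These were Vcan, the hyaluronan-binding proteoglycan versican, and Adamtsl3. Their log2 fold changes were -0.69 and -0.60 without the block (unadjusted p = 0.0182 and 0.0317 from the same edgeR test). Thsd4, a fibrillin-binding ADAMTS-like protein, had a log2 fold change of -0.43 with the block.

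Among elastases 6 of 7 tested genes had negative log2 fold changes, against 48.4% of all tested genes. Their median was -0.29, and -0.097 without both libraries numbered 1. Mmp2, a gelatinase that can cleave elastin, stood at 40.7, 38.6 and 22.9 FPKM in the WT libraries 1, 2 and 3, compared with 22.0, 25.4 and 23.2 FPKM in the Npr1+/- libraries 1, 2 and 3, with a log2 fold change of -0.52 (unadjusted p = 0.0495 by the quasi-likelihood test of edgeR, and 0.0158 with the block). Of the 7 tested TGF-β and BMP family ligands, 5 had positive log2 fold changes, among them Bmp4 with 0.34 with the block. Timp4, a metalloproteinase inhibitor, was higher in each number, with a log2 fold change of 0.59 with the block (unadjusted p = 0.00537 from the same edgeR test). Matn2, a matrix adaptor protein, and Vtn, the integrin ligand vitronectin, had log2 fold changes of 0.41 and 1.65 without the block (unadjusted p = 0.0423 and 0.0279 from the same edgeR test). Vtn was listed at 4.37 FPKM in Npr1+/- 1 and at 1.44 and 1.43 FPKM in Npr1+/- 2 and 3, all above the 0.55 to 1.19 FPKM of WT libraries. It was the only 1 of the 47 genes with that pattern, 2.13% against 3.9% of all tested genes. The smallest adjusted p among the 47 genes was 0.121 for Adamtsl3, by the quasi-likelihood test of edgeR with the block.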

How the data were processed

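Whole aorta RNA of male mice was sequenced in 3 WT and 3 Npr1+/- libraries on the BGISEQ platform. The authors filtered reads with SOAPnuke, aligned them with Bowtie2 to a coding gene set and estimated expression with RSEM. The submitters' processing notes name mm10 and DESeq2 1.4.5. The deposited table holds estimated counts and FPKM values for each library, both made by the authors with RSEM. The 4 columns of the authors' means were not used. Gene symbols came from a RefSeq table of GRCm38.p6, which matched 18070 of 18191 gene identifiers.

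Estimated counts were rounded and tested with edgeR 4.0.16 in R 4.3.3 (TMM normalization, filterByExpr with a minimum count of 10, quasi-likelihood test, Benjamini-Hochberg adjustment over 13938 genes). A call needed an adjusted p below 0.05 together with a log2 fold change of 0.5 or more in size. DESeq2 1.42.0 and limma 3.58.1 were alternatives, with limma run on log2 FPKM after adding 0.1 or 1. The script was tested on simulated data. Totals were 13510970 to 16664343 estimated counts per library, and 3 counts corresponded to 0.185 to 0.219 CPM.

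Libraries of the same number deviated together, with correlations of 0.64, 0.39 and 0.24 across genes for the numbers 1, 2 and 3, so the numbers were treated as pairs. The labels do not say that a number marks a litter, batch or day, and the numbers 2 and 3 were not told apart by this check, since WT 3 with Npr1+/- 2 gave 0.44 and WT 2 with Npr1+/- 3 gave 0.37. The members and all gene lists were chosen with earlier results of these data known. The text names all members, Npr1, and other genes of the pathway with an unadjusted p under 0.05 in either fit.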

Additional observations from a re-analysis of the deposited data

How the results depend on the processing

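The negative median of the members held under every alternative run, from -0.483 to -0.25 when single libraries were left out. With the replicate block, the members lower at an unadjusted p under 0.05 were 11 in place of 2. There were 13 by DESeq2 with the block, 10 without both libraries numbered 1, 7 with the block and without those libraries (chosen after seeing the data), and between 1 and 4 with single libraries left out. DESeq2 with the replicate block called 7 members and 5 other genes of the pathway, where edgeR called 0 with or without the block. Among the members and these pathway genes, the block changed no other call. The lowest count, 1, came without WT replicate 2 and the highest, 4, without Npr1+/- replicate 2. Over all genes, DESeq2 made 16 calls and 265 with the block, and edgeR without both libraries numbered 1 made 1 call and 32 with the block, against 0 in the main fit. Of 450 values of single members under alternatives, 13 had the opposite sign. With single libraries left out, 7 members did so. The log2 fold change of Emilin2 then ranged from -0.4899 to 0.003853, that of Mfap3 from -0.2079 to 0.03984, that of Mfap3l from -0.3158 to 0.3835, that of Fbln7 from -0.02234 to 0.3781, that of Efemp1 from -0.165 to 0.4384, that of Ltbp2 from -0.2924 to 0.02203 and that of Adamtsl4 from -0.1766 to 0.04845. Without both libraries numbered 1 Mfap3l was at -0.1484, and at -0.1486 with the block. The cause was not tested. Depth was lowest for Adamts17, Fbn2 and Emilin3, with at most 15 counts per library.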
